A study of Mus musculus with 8 samples.

Results

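The genes described here are 30 genes of the primitive streak and the early mesoderm, taken from a list of 29 symbols together with Brachyury (symbol T). All 30 were present among the 54232 genes of the count tables, matched by symbol through the Ensembl identifiers and the GENCODE annotation of GRCm38 (mm10). They were measured by RNA-seq in mouse E14 embryonic stem cells, a line derived from the inner cell mass (strain given as 12910la), grown on gelatin in 15% FBS with 10 ng/ml of the cytokine LIF. In one experiment, cells of genotype Ssrp1_KO, made with Cas9 and a guide RNA, were set beside control cells. In the other, cells of genotype Usp7_KD carried an shRNA against Usp7 in the pSuper puro vector (1000 ng) and were selected from 24 h with 1 ug/ml puromycin for 3 days, beside control cells of their own. Each of the 4 groups had 2 libraries. SSRP1 is a subunit of the histone chaperone FACT, and USP7 is a deubiquitinase. Whether the knockout is 1 clone or several, whether its controls went through editing, and whether the knockdown controls received a vector and puromycin is not given in the sources used here. Nor is it given whether the replicates came from separate cultures, so the p-values measure the spread between these libraries, which may be technical.

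The primitive streak is the site in the gastrulating embryo where epiblast cells leave the epithelium and become mesoderm and endoderm. BMP4 from the extraembryonic ectoderm, WNT3 in the posterior epiblast and NODAL together set it up, and WNT signalling through beta-catenin switches on Brachyury and its T-box relative Eomes. These factors act upstream of Mesp1 and Mesp2, which mark nascent mesoderm, while Snai1 represses E-cadherin so that cells can move. Heart, blood and muscle genes follow in the mesoderm that leaves the streak. Embryonic stem cells in serum and LIF are kept from this step, but single cells in such cultures can carry streak transcripts. In RNA from whole cultures, fewer cells that carry a transcript and less of it per cell cannot be told apart, and this holds for every level below.

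Start-site sequences are shown for Mesp2, which was called in the knockdown, for its neighbour Mesp1, which was not, and for T and Wnt3, a target and a signal of the pathway. They span 250 bases before to 50 after the RefSeq start (GRCm38.p6), 5′ to 3′ on the gene's strand: Mesp2 at chr7:79810477-79810776 (plus strand), Mesp1 at chr7:79793541-79793840 (minus strand), T at chr17:8434173-8434472 (plus strand) and Wnt3 at chr11:103773925-103774224 (plus strand). Capitals mark matches to 3 motifs searched on both strands, and no match of one lay on another in these windows: the TCF/LEF word CTTTGAA or CTTTGAT, the T-box word AGGTGTGA and the FOXH1 word AATNCACA.
Mesp2: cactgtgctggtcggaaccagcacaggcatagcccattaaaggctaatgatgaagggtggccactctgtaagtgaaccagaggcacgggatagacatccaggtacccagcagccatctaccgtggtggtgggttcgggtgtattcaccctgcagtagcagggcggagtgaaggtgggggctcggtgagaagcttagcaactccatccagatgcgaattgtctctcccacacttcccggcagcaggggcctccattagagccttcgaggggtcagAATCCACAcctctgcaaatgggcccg
Mesp1: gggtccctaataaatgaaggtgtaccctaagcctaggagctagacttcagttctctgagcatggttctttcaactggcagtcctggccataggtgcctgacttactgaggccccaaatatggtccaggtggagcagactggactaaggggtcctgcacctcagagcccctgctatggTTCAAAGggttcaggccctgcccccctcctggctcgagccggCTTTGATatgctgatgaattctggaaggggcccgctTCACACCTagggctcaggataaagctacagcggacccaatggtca
T: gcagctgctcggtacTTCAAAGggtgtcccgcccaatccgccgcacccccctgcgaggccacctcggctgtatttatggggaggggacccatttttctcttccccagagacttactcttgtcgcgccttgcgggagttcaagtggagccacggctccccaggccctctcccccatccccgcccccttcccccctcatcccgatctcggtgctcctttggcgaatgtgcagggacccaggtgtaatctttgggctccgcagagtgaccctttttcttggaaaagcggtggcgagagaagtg
Wnt3: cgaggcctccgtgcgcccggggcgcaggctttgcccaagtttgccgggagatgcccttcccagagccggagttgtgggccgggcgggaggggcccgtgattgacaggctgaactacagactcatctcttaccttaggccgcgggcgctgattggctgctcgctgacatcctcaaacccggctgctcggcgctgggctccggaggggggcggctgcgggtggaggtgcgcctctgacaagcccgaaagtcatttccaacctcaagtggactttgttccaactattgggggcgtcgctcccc

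The Mesp1 window held 2 TCF/LEF words, which began 73 and 31 bases before the RefSeq start, and a T-box word at base 6 of that transcript. The Mesp2 window held neither, and a FOXH1 word began at base 25 of its transcript. T held a TCF/LEF word 235 bases before its start, and the Wnt3 window held none of these letters. Of the 30 genes, 23 had an entry in the RefSeq promoter table, with 24 windows (Mixl1, Wnt8a, Fgf8, Foxf1, Cdx1, Lmo2 and Snai2 had none). The TCF/LEF word stood in 3 of the 24 (Mesp1, Msgn1 and T), against 8.65% of all 32851 windows of that length. The T-box word and the FOXH1 word stood in 1 each, against 1.28% and 3.6% of all windows. Most windows of these genes were rich in CpG: the median ratio of observed to expected CpG was 0.699, against 0.384 over all windows. The ratio passed 0.6 in 16 of 24, against 35.8% of all windows. Of the windows shown, those of T (0.607) and Wnt3 (0.744) passed it, and those of Mesp1 (0.174) and Mesp2 (0.403) did not. Mesp1 and Mesp2 lie head to head on chromosome 7 with GENCODE starts 16939 bp apart and 0 annotated genes between them. The GENCODE start of Mesp1, at 79793788, lies upstream of its RefSeq start and of the words marked in its window.

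Library totals ranged from 15879056 to 18361130 counts. Usp7 mRNA in CPM, the usual scaling of a count by its library's normalised total, was 117 and 128 in the knockdown against control values of 386 and 381, a log2 change of -1.64 (SE 0.19, adjusted p = 0.0012). Ssrp1 mRNA was 400 and 120 CPM where the label is knockout, against control values of 423 and 460, so replicate 1 of that group kept a level near the controls (log2 change -0.77, adjusted p = 0.41). The position of the edit is not given in the sources used here, so the transcript count does not settle whether the protein was lost. Mitochondrial genes took 7.31% and 2.81% of counts in that group against 0.73% and 0.78% in its controls, and between 1.67% and 2.44% in the Usp7 experiment. The cells carried stem cell markers throughout: Pou5f1, Sox2, Nanog and 5 others summed to 3899 to 5629 CPM per library, and 0 of the 8 were called by edgeR in either experiment (0 and 2 had an unadjusted p under 0.05, and DESeq2 called 0 and 1).

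Most of the genes were low. Per kilobase of exon, their median level was 0.15 CPM for Ssrp1 controls and 0.32 for the knockout label, then 0.27 for Usp7 controls and 0.38 for the knockdown. The median gene stood above 39.3% to 43.5% of 21983 protein-coding genes, depending on the group. Bmp4 had the highest level per kilobase in every group (between 14.2 and 23.7 CPM per kb), with Myl7 next except in the knockdown, where Mesp2 was second at 7.01. Above 1 CPM per kb stood 5, 7, 7 and 9 genes in the same order of groups. Msgn1, Lhx1, Hand2, Foxf1, Gata5 and Actc1 stayed under 10 counts in all 8 libraries.

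**Figure D1:**
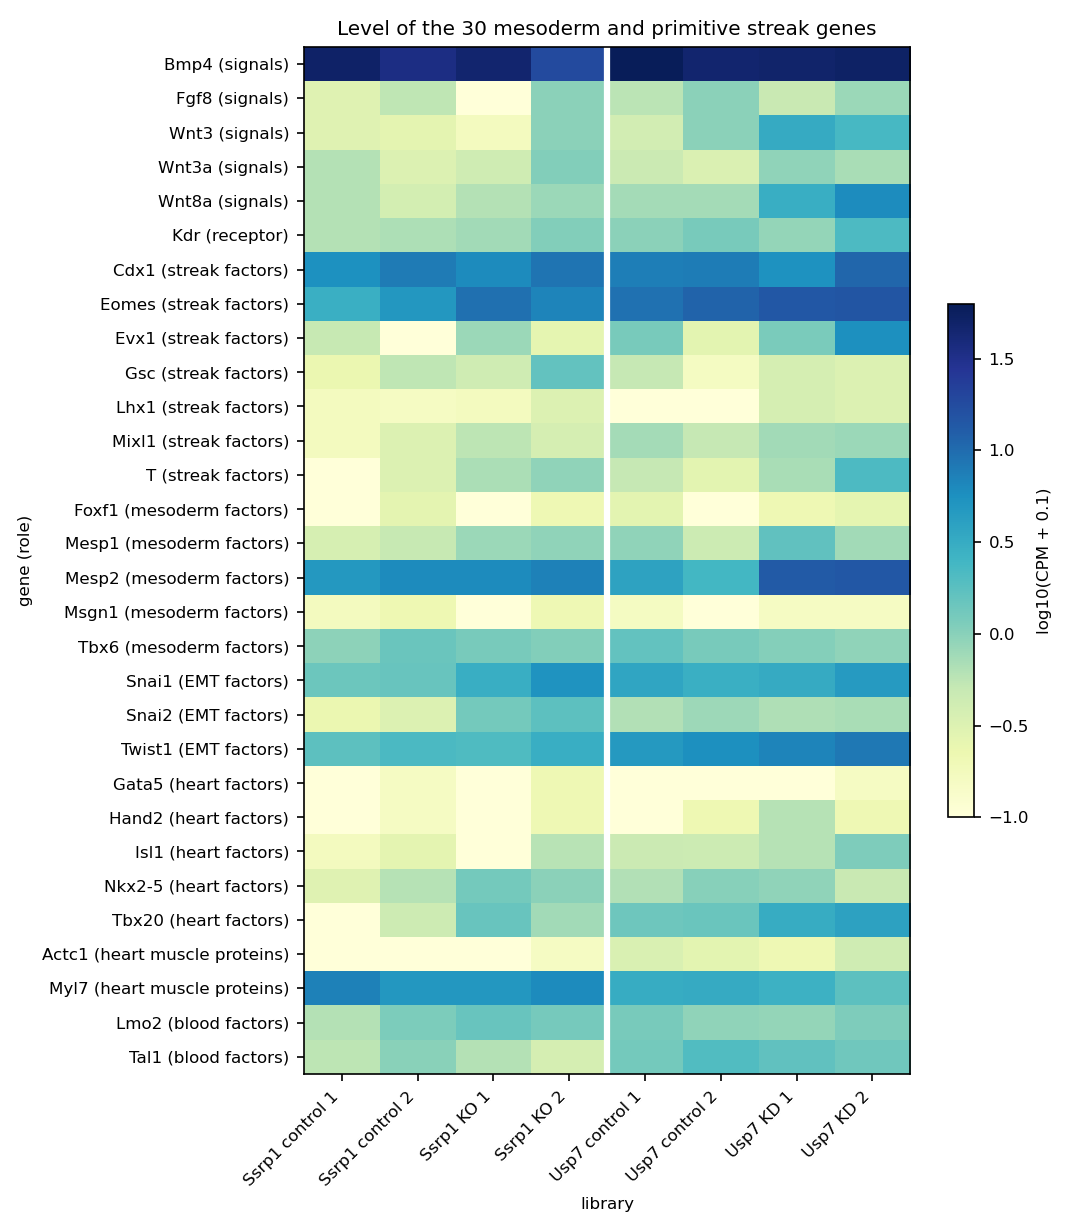
Level of each of the 30 genes (rows, with its role) in each of the 8 libraries (columns), as the log10 of TMM-normalised CPM plus 0.1. Bmp4 is dark in every library, Mesp2 and Wnt8a are darker in both Usp7 knockdown libraries (KD) than in their controls, and 6 genes stay pale throughout.

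The filter on low counts kept 14 of the 30 genes in the Ssrp1 experiment and 22 in the Usp7 experiment, so 16 and 8 were too low to judge. Gsc and Isl1 reached 10 counts in some library but were kept in neither. A gene needed 0.598 CPM (Ssrp1) or 0.566 CPM (Usp7) in 2 libraries of its experiment. Of the 14 genes, 5 (Mesp1, Kdr, Snai2, Tbx20 and Nkx2-5) were under that level in both controls, and of the 22 genes, T and Wnt3a were. These passed only because the other group was higher. Lmo2 (Ssrp1) and 7 genes of the Usp7 experiment (Mixl1, Mesp1, Wnt3, Fgf8, Evx1, Snai2 and Nkx2-5) reached the level in 1 control. They too needed a library of the other group to pass. Counts of genes that stand higher among those tested therefore describe the filter as well as the cells.

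In the Usp7 knockdown, Mesp2 and Wnt8a, a nascent mesoderm factor and a posterior Wnt ligand, rose, and the other 20 genes tested did not pass the test. Thus 2 of 22 were called higher and 0 lower, against 2.99% of all genes tested called in this comparison (2.36% higher, 0.628% lower). Another 4 had an unadjusted p under 0.05, Wnt3, Tbx20, Evx1 and T, all higher (only Tbx20 reached the filter level in both controls). Such p-values were found for 6 of 22 in all, against 16.7% of all genes. Both knockdown libraries stood above both controls for 9 genes (24.6% of all genes did) and below for Tbx6 and Myl7 (23.4% did). Among the 9, T and Wnt3a were under the filter level in both controls, so passing the filter already required this. Mixl1 and Wnt3 reached that level in 1 control and also needed the knockdown to pass. The median log2 change of the 22 was 0.43, against -0.02 over all genes.

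Mesp2 (chr7:79810727-79813439, plus strand), a basic helix-loop-helix factor of somite-forming mesoderm, had control counts of 63 and 40 and knockdown counts of 242 and 252, that is 3.71 and 2.35 against 13.4 and 13.8 CPM. The groups were far apart beside the gap between replicates. The change was 4.49-fold (log2 2.17, SE 0.31, adjusted p = 0.0041 by edgeR's quasi-likelihood test). Wnt8a had 11 counts in each control and 51 and 106 in the knockdown, or 0.648 and 0.646 against 2.83 and 5.82 CPM. Both knockdown libraries were higher, and they differed from each other by more than 2-fold. The change was 6.62-fold (log2 2.73, SE 0.50, adjusted p = 0.016). Without knockdown replicate 2, neither was called: Mesp2 kept a log2 change of 2.14 (adjusted p = 0.11) and Wnt8a 2.11 (adjusted p = 0.43), and calls over all genes went from 476 to 42. Wnt8a also lost its call with no filter on low counts (adjusted p = 0.089) and in a joint fit of the 8 libraries (adjusted p = 0.092).

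**Figure D2:**
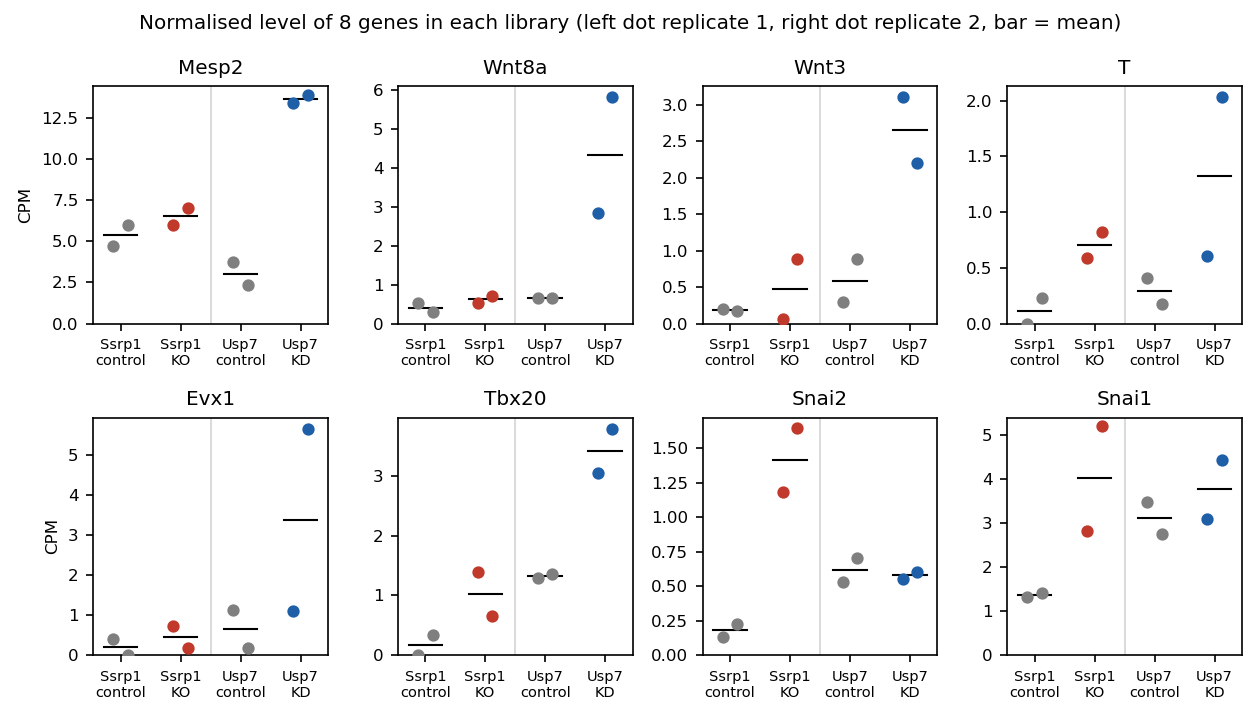
TMM-normalised CPM of 8 genes in the 8 libraries, 1 point per library, by group. Mesp2 reaches 13.4 and 13.8 CPM in the Usp7 knockdown against 3.71 and 2.35 in its controls, and Snai2 and Snai1 are higher in both libraries labelled knockout than in their own controls.

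The ligands were followed in both experiments, and here and below the 2 control values come first. Wnt3 (chr11:103774150-103817957, plus strand), the Wnt that starts the streak, had 5 and 15 counts with the Usp7 controls and 56 and 40 with the knockdown. Its log2 change was 2.16 (SE 0.56) with an adjusted p of 0.070, and it was called by DESeq2 (adjusted p = 0.0496). In the Ssrp1 experiment it had 3 and 3 against 1 and 16 counts, and the higher value was in replicate 2 alone. Wnt3a, which later acts in the tail bud, had 6 and 4 against 15 and 11 counts in the knockdown experiment (log2 1.27, SE 0.65, adjusted p = 0.36). It had 8 and 4 against 5 and 18 counts in the Ssrp1 experiment. Wnt8a had 8 and 5 against 8 and 13 counts there, too low to test. Fgf8, a ligand that cells need to leave the streak, had 8 and 15 against 7 and 13 counts in the knockdown experiment (log2 -0.29, adjusted p = 0.86), and 3 and 8 against 0 and 16 in the other.

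Bmp4, the ligand that induces posterior mesoderm, was the best covered of the genes. It had 1032 and 777 against 867 and 943 counts in the knockdown experiment, a log2 change of -0.09 (SE 0.20, adjusted p = 0.86). The groups overlapped. In the Ssrp1 experiment it had 777 and 611 against 700 and 327 counts (log2 -0.42, SE 0.42, adjusted p = 0.66), and replicate 2 labelled knockout was the lowest of the 8 libraries. Bmp4 overlaps Gm15222 on the other strand, which had 22 to 44 counts per library, and the strand setting of the counting is not given in the sources used here. Kdr, the VEGF receptor of early blood and vessel precursors, had 15 and 19 against 14 and 37 counts in the knockdown experiment and 8 and 10 against 10 and 18 in the other. Its log2 changes were 0.49 (adjusted p = 0.72) and 0.59 (adjusted p = 0.72).

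Among the streak factors, none of 5 tested in the knockdown and none of 2 tested in the libraries labelled knockout was called. T (chr17:8434423-8442496, plus strand), the founding T-box factor, had 7 and 3 against 11 and 37 counts with the knockdown (log2 2.14, SE 0.75, adjusted p = 0.17). Most of that difference lay in knockdown replicate 2. In the Ssrp1 experiment T had 0 and 4 against 9 and 15 counts and was too low to test. The ratio of normalised counts was 5.9 (95% interval 2.03 to 23.4, counting error only). Evx1 (chr6:52313498-52318378, plus strand), a homeobox factor of the posterior streak, had 19 and 3 against 20 and 103 counts in the knockdown experiment (log2 2.37, SE 0.82, adjusted p = 0.17). The groups overlapped, and replicate 2 of the knockdown again held nearly all of it. Its antisense neighbour Evx1os had 5 and 0 against 3 and 23 counts in these libraries, so the reads of both could not be told apart without the strand setting. Evx1 had 6 and 0 against 11 and 3 counts in the Ssrp1 experiment.

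Eomes, the T-box factor of anterior streak and endoderm, was above both controls in both experiments without passing a test. It had 154 and 196 against 255 and 266 counts in the knockdown experiment (log2 0.48, SE 0.24, adjusted p = 0.35). It had 42 and 85 against 143 and 121 counts in the Ssrp1 experiment (log2 1.08, SE 0.53, adjusted p = 0.31). Its antisense neighbour Gm33460 had 4 to 20 counts per library. Cdx1, a caudal homeobox factor, had 127 and 129 against 96 and 199 counts with the knockdown and 84 and 138 against 92 and 159 in the other experiment, and both pairs of groups overlapped. Mixl1, a homeobox factor of mesendoderm, had 11 and 7 against 12 and 13 counts with the knockdown (log2 0.38, adjusted p = 0.80), and 1 and 4 against 7 and 5 in the other. Gsc, the organizer homeobox factor, had 7 and 1 against 5 and 4 counts with the knockdown and 2 and 8 against 5 and 28 in the other, where replicate 2 labelled knockout stood alone. Lhx1, its partner in anterior mesendoderm, had 0 and 0 against 5 and 4 counts with the knockdown. The ratio was 2.81 when the controls were set at a floor of 3 counts over the group, a value that rests on the floor chosen. Without the floor, the 95% interval of the ratio began at 1.85 and had no upper limit (counting error only).

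Of the other mesoderm factors, Mesp1 (chr7:79792241-79793788, minus strand), which marks the earliest heart precursors, had 14 and 6 against 28 and 12 counts with the knockdown. The groups overlapped, and the log2 change was 0.90 (SE 0.64, adjusted p = 0.53). In the Ssrp1 experiment it had 4 and 7 against 11 and 15 counts (log2 1.21, SE 0.73, adjusted p = 0.43). Mesp2 had 72 and 106 against 91 and 128 counts there, and the groups overlapped (log2 0.28, SE 0.49, adjusted p = 0.82). Tbx6, which commits cells to paraxial mesoderm, had 26 and 19 against 17 and 15 counts with the knockdown (log2 -0.58, adjusted p = 0.61) and 13 and 24 against 17 and 18 in the other (log2 -0.08, adjusted p = 0.97). Msgn1, its partner in that choice, had at most 2 counts, and Foxf1 of the lateral plate at most 3.

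In the libraries labelled knockout of Ssrp1, 0 of 14 genes tested were called, against 3.71% of all genes in this comparison (3.39% higher, 0.324% lower). DESeq2 called 0 as well. In edgeR, 3 had an unadjusted p under 0.05, the migration factors Snai2 and Snai1 and the heart factor Tbx20, all with higher values. Over all genes 18.2% had such a p. Both libraries labelled knockout stood above both controls for 8 of the 14 (27.3% of all genes did) and below for none (22.7% did). The median log2 change of the 14 was 0.62, against 0.03 over all genes. Of the 14, 5 were let through by the higher group alone and Lmo2 with its help.

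Snai2 (chr16:14705852-14709385, plus strand), a zinc-finger repressor of epithelial genes, had 2 and 4 control counts and 18 and 30 where the label is knockout. Both of the latter were above both controls, at a 7.56-fold difference (log2 2.92, SE 0.78, adjusted p = 0.068). Whether it was called depended on the fit. The adjusted p was 0.030 with no filter and 0.030 in the joint fit of 8 libraries, but 0.14 with DESeq2 and 0.16 with GC and length correction (log2 2.38). Leaving out 1 library gave an adjusted p between 0.019 (without replicate 1 labelled knockout) and 0.77 (without control replicate 1). In the Usp7 experiment Snai2 had 9 and 12 against 10 and 11 counts, and the groups overlapped. Snai1, its relative that acts first in the streak, had 20 and 25 against 43 and 95 counts (log2 1.56, SE 0.62, adjusted p = 0.21), and 59 and 47 against 56 and 81 with the knockdown (log2 0.28, adjusted p = 0.76). Twist1, a helix-loop-helix factor of migrating mesoderm, had 25 and 37 against 30 and 52 counts (log2 0.37, adjusted p = 0.81), and 78 and 95 against 121 and 149 with the knockdown (log2 0.55, SE 0.30, adjusted p = 0.39). Without replicate 1 labelled knockout, the library whose Ssrp1 mRNA was near the controls, 3 of the genes were called: Snai2 and Snai1 higher and Bmp4 lower. Bmp4 then had a log2 change of -1.32 (adjusted p = 0.028). Without replicate 2, only Tbx20 was called (adjusted p = 0.035). Calls over all genes grew as well, from 585 to 1512 without replicate 1 and to 1884 without replicate 2, so these few calls came with many more across the genome.

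Tbx20 (chr9:24718138-24774303, minus strand), a T-box factor of the heart field, had 0 and 6 against 21 and 12 counts in the Ssrp1 experiment (log2 2.46, SE 1.03, adjusted p = 0.23). With the knockdown it had 22 and 23 against 55 and 69 counts (log2 1.37, SE 0.40, adjusted p = 0.11). Of the 2 heart factors tested out of 5, it alone was above its controls in both libraries of both experiments. In the Ssrp1 experiment both factors were under the filter level in both controls, so passing the filter already required this there. With the knockdown, both controls of Tbx20 reached the filter level. Nkx2-5, the heart homeobox factor, had 3 and 9 against 18 and 16 counts in the Ssrp1 experiment (2.83-fold, SE 0.76 on the log2 scale, adjusted p = 0.33) and 9 and 16 against 15 and 7 with the knockdown. Isl1 of the second heart field had 1 and 3 against 0 and 9 counts, and 6 and 6 against 9 and 19 with the knockdown. Hand2 had 2 counts in the Usp7 controls and 11 in the knockdown, 9 of them in replicate 1, a ratio of 5.16 (95% interval 1.13 to 47.9, counting error only). Gata5 had at most 2 counts and Actc1, the cardiac actin, at most 6. Myl7, the atrial myosin light chain, was well covered, at 107 and 84 against 72 and 109 counts in the Ssrp1 experiment (log2 -0.13, adjusted p = 0.92) and 51 and 53 against 48 and 30 with the knockdown (log2 -0.50, SE 0.40, adjusted p = 0.58).

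The blood factors were low, and neither was called. Tal1, needed for the first blood cells, had 20 and 33 against 28 and 23 counts with the knockdown (log2 -0.15, adjusted p = 0.91) and 7 and 16 against 8 and 5 in the Ssrp1 experiment. Lmo2, its partner protein, had 19 and 14 against 14 and 19 counts with the knockdown (log2 -0.09, adjusted p = 0.95), and 8 and 19 against 21 and 21 in the other (log2 0.65, adjusted p = 0.68). The antisense gene 4931422A03Rik at Lmo2 had 1 to 10 counts per library.

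**Figure D3:**
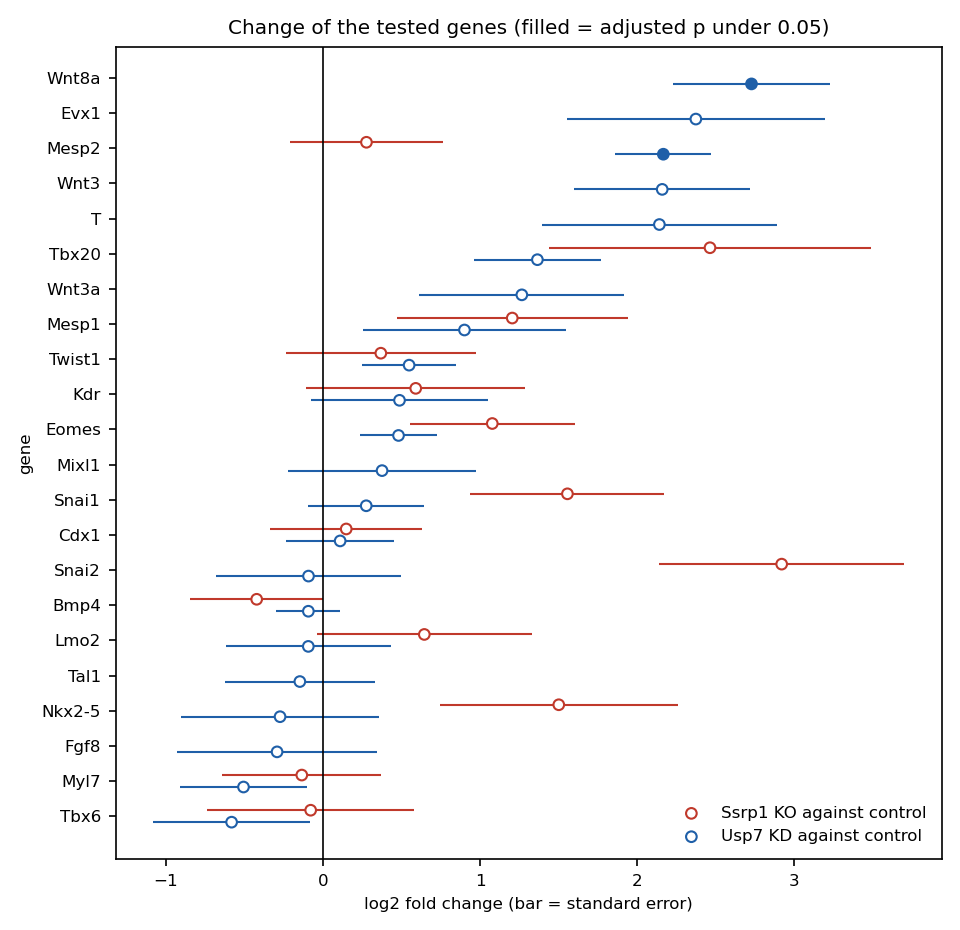
Log2 change (with SE bars) of the genes tested in each experiment, 22 for the Usp7 knockdown and 14 for the libraries labelled knockout of Ssrp1. Filled points passed an adjusted p of 0.05, which only Mesp2 (2.17) and Wnt8a (2.73) did, both in the knockdown.

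The difference between the experiments, the change in the libraries labelled knockout minus that in the knockdown, was tested in a joint fit of all 8 libraries. Of 22 genes tested 0 were called by edgeR, against 1.00% of all genes, and 3 had an unadjusted p under 0.05 (15.1% of all genes did). DESeq2 called Mesp2. For Mesp2 the difference was -1.93 on the log2 scale (SE 0.51, adjusted p = 0.10), for Wnt8a -2.15 (SE 0.90, adjusted p = 0.29) and for Snai2 2.97 (SE 0.94, adjusted p = 0.17). So Mesp2 was called in one experiment and not in the other, without a called difference between them in this fit.

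The pathways around the streak were read from lists of 28 Wnt, 16 Nodal, 16 BMP and 9 FGF genes and 7 partners of the epithelial to mesenchymal transition. Only 3 calls were made among them. In the libraries labelled knockout, the Nodal feedback inhibitors Lefty1 and Lefty2 fell, 2 of 15 Nodal genes tested, and no gene of the other lists was called by edgeR. Among those lists 4 Wnt, 2 BMP, 0 FGF and 3 transition genes had an unadjusted p under 0.05, and DESeq2 called 1 Wnt and 1 BMP gene. Lefty1 stood at 10.2 and 2.14 CPM there, against control values of 164 and 111 (log2 -4.49, SE 0.60, adjusted p = 0.0072). Lefty2 stood at 30.4 and 7.35 CPM against 139 and 188 (log2 -3.12, SE 0.54, adjusted p = 0.015). Nodal itself was 89.9 and 69.4 against 80.1 and 63.2 CPM, and the groups overlapped (log2 -0.15, adjusted p = 0.83). Its coreceptor Tdgf1 was 1002 and 1547 against 1146 and 1226 CPM (log2 -0.10, adjusted p = 0.91). In the knockdown the log2 change was -0.44 for Lefty1 (adjusted p = 0.28) and 0.37 for Lefty2 (adjusted p = 0.38). For Nodal it was 0.40 (adjusted p = 0.38) and for Tdgf1 -0.59 (adjusted p = 0.21). The changes of Lefty1 and Lefty2 differed between the experiments (log2 -4.11, adjusted p = 0.027, and -3.53, adjusted p = 0.036). That count of 2 went to 0 without Ssrp1 control replicate 1 and without any 1 of the 4 Usp7 libraries, and to 1 without Ssrp1 control replicate 2.

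In the knockdown, Id2, a BMP-responsive inhibitor of helix-loop-helix factors, rose, 1 of 14 BMP genes tested. No Wnt, Nodal or FGF gene was called by edgeR (2, 3 and 1 had an unadjusted p under 0.05) or by DESeq2. Id2 stood at 14.9 and 24.1 CPM against control values of 6.89 and 8.16 (log2 1.37, SE 0.28, adjusted p = 0.028). The call was lost without knockdown replicate 2 (log2 0.98, adjusted p = 0.69), without control replicate 1 (adjusted p = 0.057), with no filter (adjusted p = 0.15) and in the joint fit (adjusted p = 0.25). Id1, of the same family, was 116 and 99.1 against 142 and 234 CPM (log2 0.81, SE 0.24, adjusted p = 0.11). The median log2 change of the 14 BMP genes was 0.58, against -0.02 over all genes. Above 0 were 11 of the 14 (48.4% of all genes were), and 8 had an unadjusted p under 0.05, against 16.7% of all genes. Smad9, 1 of the 8 (named after its values were seen), had 0 and 3 control counts. It was under the filter level in both controls and passed only because the knockdown was higher. Of the 8, the receptor decoy Bambi (chosen after its values were seen) had the lower values in the knockdown, 15.6 and 15.2 against 10.0 and 11.0 CPM. Of the direct Wnt targets, Sp5 was 2.53 and 1.35 against 1.99 and 6.31 CPM in the knockdown (log2 1.10, adjusted p = 0.34) and 3.61 and 2.66 against 0.395 and 0.823 CPM in the Ssrp1 experiment (log2 -2.33, SE 0.68, adjusted p = 0.088). Axin2 had log2 changes of 0.29 (adjusted p = 0.57) in the knockdown and -1.05 (adjusted p = 0.23) in the Ssrp1 experiment, where it was 12.7 and 16.1 against 8.36 and 5.60 CPM. Ctnnb1, which encodes beta-catenin, had log2 changes of 0.34 (adjusted p = 0.47) and -0.28 (adjusted p = 0.67).

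Fgf4, the main FGF of these cells, had log2 changes of -0.37 (adjusted p = 0.34) in the knockdown and -0.03 (adjusted p = 0.97) in the libraries labelled knockout. Fgf5, a mark of the primed epiblast, was under 0.5 CPM in every library. Cdh1, the E-cadherin gene that SNAI1 and SNAI2 repress, was 361 and 468 against 463 and 555 CPM in the Ssrp1 experiment (log2 0.30, SE 0.29, adjusted p = 0.65), where Snai1 and Snai2 had their highest fold differences. In the knockdown it was 227 and 266 against 223 and 158 CPM (log2 -0.37, adjusted p = 0.42). By edgeR and by DESeq2, 0 of the 7 transition partners were called in either experiment, and 3 (Ssrp1) and 2 (Usp7) had an unadjusted p under 0.05. The 3 had both libraries labelled knockout below both controls: the epithelial adhesion gene Epcam (log2 -0.78, adjusted p = 0.14), the N-cadherin gene Cdh2 (log2 -1.81, adjusted p = 0.15) and the vimentin gene Vim (log2 -0.79, adjusted p = 0.16). In the knockdown the 2 were Epcam (log2 -0.67, adjusted p = 0.10) and the repressor Zeb2 (log2 1.27, adjusted p = 0.20). Epcam, Cdh2, Vim and Zeb2 were named after their values were seen.

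**Figure D4:**
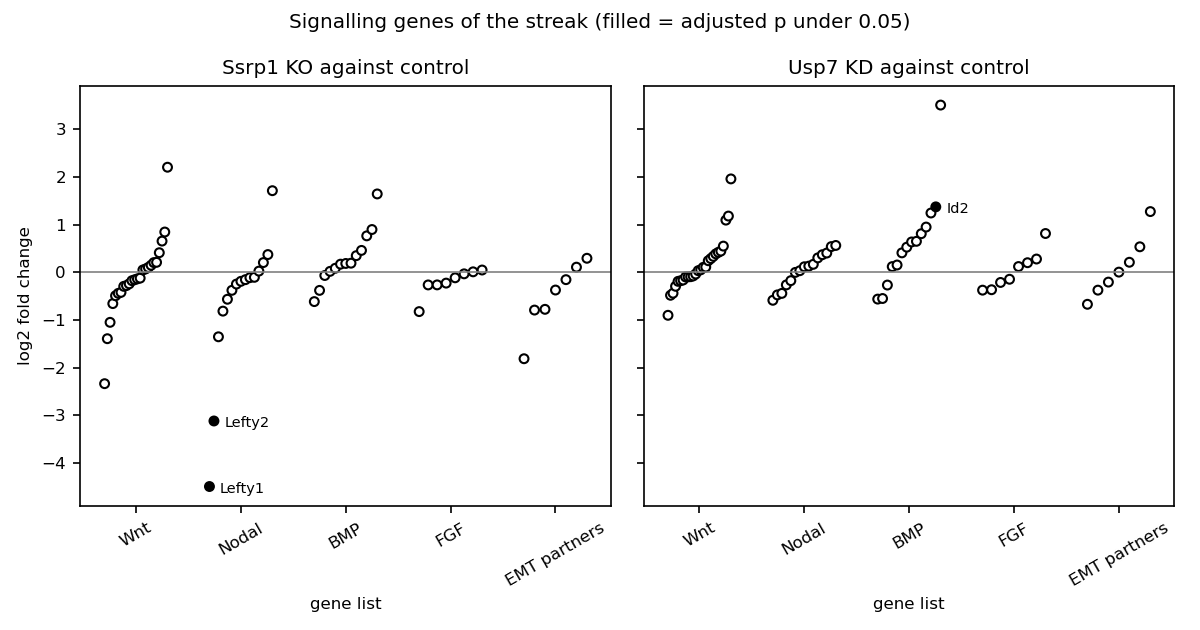
Log2 change of each tested gene of the Wnt, Nodal, BMP, FGF and epithelial to mesenchymal transition (EMT) lists in both experiments. Filled points were called: Lefty1 and Lefty2 at -4.49 and -3.12 in the libraries labelled knockout, and Id2 at 1.37 in the Usp7 knockdown.

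Markers of other cell types were read beside these genes. Endoderm markers were a list not split by origin in the streak or elsewhere. They summed to 26.6 and 25.5 CPM where the label is knockout, against 5.12 and 9.74 in the controls. Dab2 was called higher there (log2 2.87, SE 0.64, adjusted p = 0.035), 1 of 6 tested of 10, against 3.39% of all genes. All 6 had a log2 change above 0 (median 2.25), against 51.9% of all genes, and 4 had an unadjusted p under 0.05, against 18.2%. DESeq2 called 2. Sox17 (4 and 6 control counts) was under the filter level in both controls, and Dab2 and Gata6 in 1 control. These genes were tested only because libraries labelled knockout were higher. In the knockdown experiment the sums were 11.4 and 10.7 against 14.7 and 20.5 CPM, with 0 of 5 called by edgeR or DESeq2 and 2 with an unadjusted p under 0.05. Ttr and Afp had at most 7 counts. Markers of 2-cell-like cells, a rare state that resembles the early embryo, were 12 genes. In the Ssrp1 experiment they summed to 68.3 and 209 against 583 and 1737 CPM. There 10 of 11 tested were called higher, against 3.39% of all genes. With the knockdown they summed to 5.83 and 6.52 against 44.8 and 33.4 CPM, and 8 of 8 tested were called higher, against 2.36%. Under the filter level in both controls were B020004J07Rik (4 and 4 counts, Ssrp1), Zscan4b (4 and 8, Usp7) and Usp17la (3 and 2, Usp7). These passed only because the other group was higher. Zfp352 (2 and 14, Ssrp1), Zscan4e (6 and 16, Usp7) and Gm5662 (10 and 25, Usp7) reached that level in 1 control. They too needed a library of the other group to pass, so the counts called describe the filter as well. Fibroblast markers, some of which mesenchymal cells share, summed to 9.15 to 37.1 CPM per library with 0 of 3 tested called by either tool (0 and 1 with an unadjusted p under 0.05). In the Ssrp1 experiment all 3 had log2 changes above 0 (median 1.44), against 51.9% of all genes. Col1a1 had 10 and 19 against 16 and 67 counts, and Thy1 259 and 317 against 187 and 583. Col1a2 had 6 and 2 against 10 and 20, under the filter level in both controls, and passed through the other group. Col3a1, too low to test, had 0 and 0 against 7 and 4 counts. In the knockdown experiment 1 of the 3 was above 0 (median -0.59). The other 4, Dcn, Lum, Postn and S100a4, had at most 5 counts in any library. The part of any of these in the values of Snai2, Tbx20, Mesp2 or Wnt8a was not tested.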

How the data were processed

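Polyadenylated RNA of 8 libraries in 4 groups of 2 was counted per gene, in 2 tables, one per experiment. The deposited values are raw counts. The submitters' processing notes name cutadapt, HISAT2, featureCounts and mm10. No version, strand setting or rule for multimapping reads is given in the sources used here. The 92 spike-in rows held 0 counts and 67 identifiers had no symbol. Groups came from the sample titles. Each experiment was fitted separately (R 4.3.3, edgeR 4.0.16: filterByExpr, TMM, quasi-likelihood F test, Benjamini-Hochberg over all genes tested), with calls at an adjusted p under 0.05. The standard error was the log2 change divided by the root of F. CPM used TMM factors within an experiment. The steps were tested on simulated data. Alternatives were no filter, DESeq2 size factors, DESeq2 1.42.0, a replicate block, GC and length correction, a joint fit and leaving out each library. Intervals of count ratios are exact 95% binomial ones. The genes and lists were chosen with earlier results of these data known. Genes with at least 10 counts in some library are given in every library. Of the pathway lists, 11 chosen genes and the called ones (at most 6 per experiment) are named.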

Additional observations from a re-analysis of the deposited data

How the results depend on the processing

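Calls rested on 2 libraries a group and few reads, so their number moved with the fit. The main counts of called streak genes, pathway genes and all genes were 0, 2 and 585 (Ssrp1), 2, 1 and 476 (Usp7) and 0, 2 and 171 (difference). In that order, no filter gave 1, 7 and 1497, then 1, 0 and 100, then 1, 6 and 945. DESeq2 gave 0, 5 and 1109, then 3, 2 and 697, then 1, 4 and 672. GC and length correction gave 0, 2 and 289, then 3, 3 and 840 (568 higher, against 376 of 476), then 0, 1 and 138. The joint fit gave 1, 7 and 1314 (Ssrp1) and 1, 0 and 78 (Usp7). DESeq2 size factors gave 0, 2 and 631, then 2, 1 and 502, then 0, 2 and 165. Leaving out 1 library gave 0 to 3, 2 to 10 and 20 to 1884 (Ssrp1), 0 to 5, 0 to 18 and 42 to 3770 (Usp7), and 0 to 1, 0 to 6 and 1 to 1109 (difference). The 42 came without knockdown replicate 2 and the 20 without Ssrp1 control replicate 1. Among the streak genes, the 5 came without Usp7 control replicate 2. An arm left with 1 library is assumed to vary like the other group.

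A replicate block on the numbers of the titles gave 1, 5 and 988 (Ssrp1), 6, 8 and 1471 (Usp7) and 0, 3 and 525 (difference). With GC and length correction added it gave 0, 7 and 1417, then 5, 11 and 1833, then 0, 2 and 346. The 6 were Mesp2, Wnt8a, Wnt3, T, Evx1 and Tbx20, and the 1 was Snai2. The titles give only the number, and whether libraries of 1 number were handled together is not given in the sources used here. Deviations from the group means correlated at 0.184 (Ssrp1) and 0.144 (Usp7) over genes, with 2 pairs each.

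Some genes changed sign, and not all of them were near 0 in the main fit. With GC and length correction, without and with the block, the Ssrp1 log2 change was 0.17 and 0.16 for Myl7, 0.075 and 0.11 for Tbx6 and 0.022 and 0.0040 for Nodal, and without the block 0.052 for Fgf4. Leaving out 1 library, the Ssrp1 change ranged from -0.41 to 0.15 (Myl7), -1.32 to 0.10 (Bmp4), -0.15 to 0.40 (Cdx1), -0.39 to 0.28 (Tbx6), -0.40 to 0.22 (Tdgf1), -0.40 to 0.026 (Nodal), -0.20 to 0.65 (Id1) and -0.53 to 0.27 (Fgf4). The Usp7 change ranged from -0.92 to 0.18 (Nkx2-5), -0.29 to 0.13 (Bmp4), -0.28 to 0.12 (Snai2), -0.50 to 0.54 (Cdx1), -0.79 to 0.21 (Fgf8), -0.46 to 0.25 (Tal1), -0.32 to 0.15 (Lmo2), -0.0078 to 0.51 (Snai1) and -0.36 to 1.02 (Kdr). The difference ranged from -3.11 to 3.63 (Evx1, -1.25 in the main fit) and -0.54 to 4.52 (T, 0.33 in the main fit). The cause was not tested for any of these. Lefty1 and Lefty2 were called lower in the Ssrp1 experiment under each alternative run.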

Other observations

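The knockdown replicates differed for some of the genes. T, Wnt8a, Kdr, Evx1 and Cdx1 were over 2-fold higher in replicate 2 than in replicate 1, 5 of 24 genes, against 3.59% of all genes. Mesp1 and Hand2 lay the other way, over 2-fold lower in replicate 2, 2 of 24 against 2.55% of all genes. Mesp2 was nearly level between them, at 13.4 and 13.8 CPM. The shares of all genes are over genes of any level with at least 10 counts in the pair. Several of the 24 had few counts (T 11 and 37, Kdr 14 and 37, Hand2 9 and 2), and genes of like level were not compared.

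Among the libraries labelled knockout, replicate 2 was over 2-fold above replicate 1 for Gsc, Wnt3, Wnt3a and Fgf8 and over 2-fold below it for Evx1 and Bmp4, 4 and 2 of 23 genes, against 14.8% and 9.07% of all genes. Here too the shares are over genes of any level, and all but Bmp4 of the named genes had few counts.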
